A study of Mus musculus with 12 samples.

Results

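Transcripts of 32 enzymes of pyruvate and fatty acid oxidation, nearly all of them mitochondrial, were followed in purified mouse heart cells. The set was listed by gene name, but with earlier results of these data known, so it was not a blind choice. All 32 genes were found among the 57683 genes of the polyadenylated RNA table. Of these, 31 were found by symbol and Eci1 by its Ensembl identifier, since the table still calls it Dci. It holds 17 genes of pyruvate oxidation and the citric acid cycle and 15 genes of mitochondrial beta-oxidation. Cardiomyocytes, the beating muscle cells, came from 12-week-old female wild-type FVB/NJ mice, an inbred laboratory strain. They were set against cardiac nonmyocytes, labelled fibroblasts, of the same age, sex, strain and genotype. Both were taken from 3 hearts digested with collagenase and separated by gravity. Cardiomyocyte RNA was extracted directly after isolation, while nonmyocytes were first expanded in culture, which the labels describe as a P1 culture in one place and as repeatedly passaged in another. Each fraction gave 3 libraries. No allele, transgene or drug is named for either fraction.

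The citric acid cycle oxidises the acetyl groups that pyruvate dehydrogenase and beta-oxidation feed into it, and passes the electrons to the respiratory chain. Beta-oxidation shortens fatty acids in repeated rounds of dehydrogenation, hydration, dehydrogenation and thiolysis. The adult heart is known to draw most of its energy from fatty acids, and its muscle cells are packed with mitochondria. Fibroblasts in culture are known to rely more on glucose.

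Every enzyme of the set was more abundant in cardiomyocytes. All 17 pyruvate and citric acid cycle genes and all 15 beta-oxidation genes rose. Calls used an adjusted p below 0.05 in edgeR's quasi-likelihood test, with Benjamini-Hochberg correction over 14734 genes. Of all tested genes, 31.6% were called higher, 32.1% lower and 63.7% in either direction. The adjusted p-values of the enzymes ran from 1.2e-10 for Idh2 to 4.01e-07 for Suclg2. Log2 fold changes, cardiomyocyte minus nonmyocyte, ran from 2.75 for Dlst to 5.84 for Idh2. Their median was 3.37 for the pyruvate and citric acid cycle genes and 3.92 for the beta-oxidation genes, beside -0.02 over all tested genes. In each of the 32 genes the lowest cardiomyocyte library stood above the highest nonmyocyte library, a separation in that direction that 34.1% of all tested genes showed. The narrowest gap was that of Suclg2, at 4.29-fold, and the widest that of Idh2, at 48.7-fold. Levels are given in CPM, counts set to a common library size after scaling for library composition, as mean ± SD with n = 3 libraries. Standard errors follow the ± sign of log2 fold changes, and adjusted p-values are edgeR's throughout. These standard errors were back-calculated, as the size of the log2 fold change over the square root of edgeR's F statistic.

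Lower RNA content per cell and a smaller number of such cells in a fraction cannot be told apart in bulk RNA. Culture and cell type cannot be told apart either, since the nonmyocytes were grown in dishes and the cardiomyocytes were not. Nothing in the labels says which library came from which heart, so the p-values speak of variation among libraries, and some of it may be technical.

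**Figure D1:**
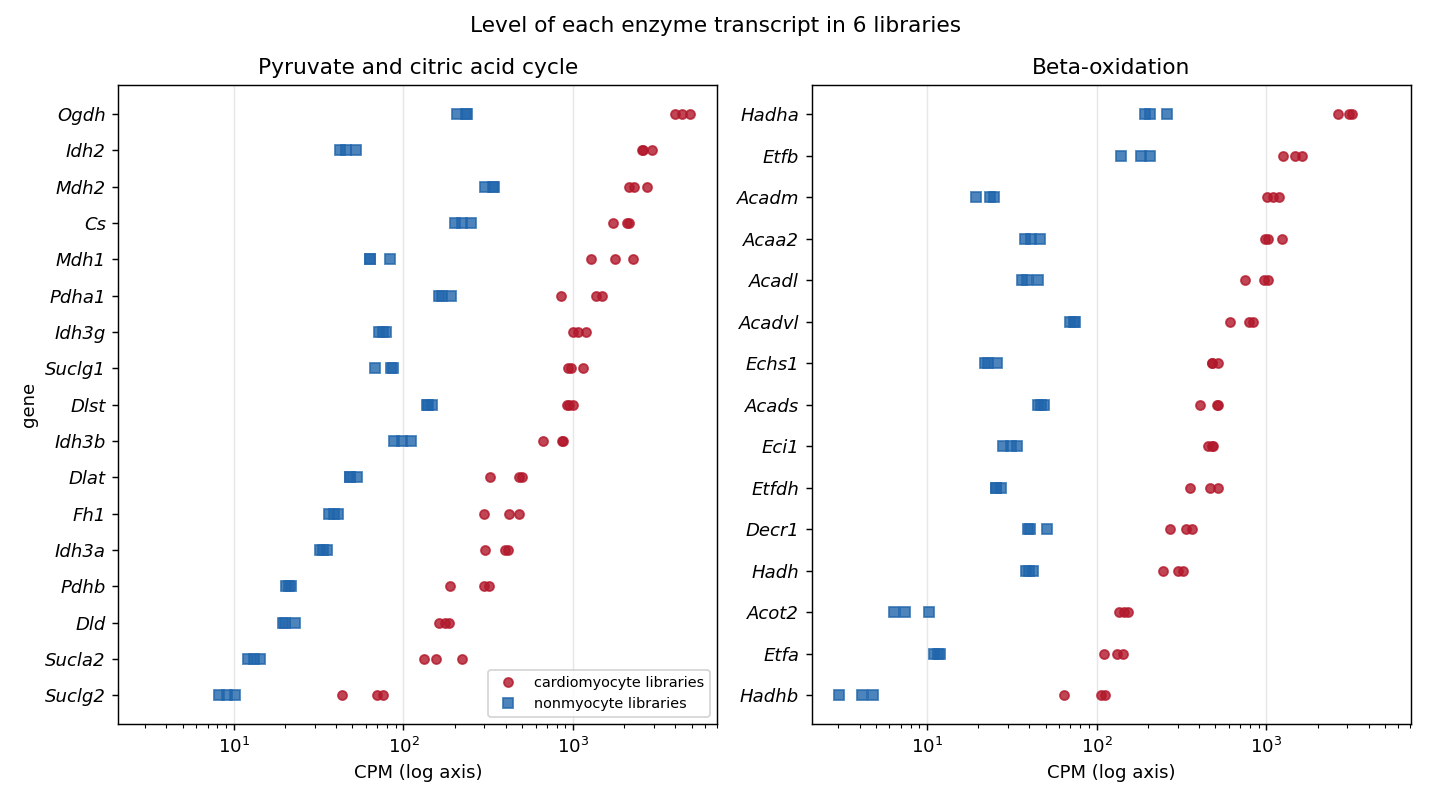
CPM (log axis) of each enzyme transcript in every library, with 17 pyruvate and citric acid cycle genes on the left and 15 beta-oxidation genes on the right. Circles are the 3 cardiomyocyte libraries and squares the 3 nonmyocyte libraries. No circle overlaps the squares of its row, and the gap is widest for Idh2 and Acadm.

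Pyruvate enters through the pyruvate dehydrogenase complex. Pdha1, its regulated alpha subunit (chromosome X, 156560141 to 156576345, build mm9 as for all gene positions), held 848, 1365 and 1477 CPM in the cardiomyocyte libraries, against 163, 169 and 191 CPM in the nonmyocyte libraries. Cardiomyocyte library 1 was the lowest of its group here, yet stood well above the nonmyocytes, and the log2 fold change was 2.82 ± 0.22 (edgeR adjusted p = 1.27e-07). Pdhb, the partner subunit of Pdha1 (chromosome 14, 8998512 to 9005462), held 189, 321 and 296 CPM in the cardiomyocyte libraries, against 21.2, 20.3 and 21.7 CPM in the nonmyocyte libraries. Its change was larger, at 3.68 ± 0.22 (edgeR adjusted p = 9.56e-09). The ratio of Pdha1 to Pdhb counts was 4.48, 4.26 and 4.98 in the cardiomyocyte libraries and 7.67, 8.29 and 8.82 in the nonmyocyte libraries, so the alpha transcript was in relatively smaller excess in cardiomyocytes. Dlat, the acetyltransferase core, averaged 433 ± 96.8 CPM in cardiomyocytes and 50.1 ± 2.72 CPM in nonmyocytes, and Dld, the dehydrogenase shared with the 2-oxoglutarate complex, 174 ± 11.9 CPM in cardiomyocytes and 20.8 ± 1.91 CPM in nonmyocytes. Their log2 fold changes were 3.11 ± 0.20 for Dlat and 3.06 ± 0.17 for Dld. Levels of Pdhb are uncertain, since 71.2% of its transcript is matched at 95% identity or more by the processed pseudogene Gm6123, and 16% of the exon bases of Pdha1 lie in exons of Map3k15.

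Citrate synthase (Cs, chromosome 10, 127774790 to 127799534), which joins acetyl-CoA to oxaloacetate, held 1713, 2120.0 and 2068 CPM in the cardiomyocyte libraries, against 201, 220.0 and 249.6 CPM in the nonmyocyte libraries. Its log2 fold change of 3.14 ± 0.18 (edgeR adjusted p = 7.02e-09) lay in the lower part of the set. The isocitrate dehydrogenases differed from each other. Idh2, the mitochondrial NADP-dependent form (chromosome 7, 87239732 to 87260278), held 2594, 2915 and 2546 CPM in the cardiomyocyte libraries, against 52.3, 45.9 and 42.5 CPM in the nonmyocyte libraries. The groups were parted by more than in any other enzyme of the set, with a log2 fold change of 5.84 ± 0.20 (edgeR adjusted p = 1.2e-10). A larger change was seen in 3.73% of all tested genes. The NAD-dependent enzyme that serves the cycle itself is built from Idh3a, Idh3b and Idh3g. Its catalytic subunit Idh3a averaged 372 ± 59.9 CPM in cardiomyocytes and 33.8 ± 1.52 CPM in nonmyocytes (log2 fold change 3.46 ± 0.18). Of its regulatory subunits, Idh3b averaged 799 ± 116 CPM in cardiomyocytes and 99.1 ± 11.8 CPM in nonmyocytes (log2 fold change 3.01 ± 0.18). Idh3g averaged 1086 ± 99.3 CPM in cardiomyocytes and 75.7 ± 3.73 CPM in nonmyocytes (log2 fold change 3.84 ± 0.17), the larger change of the pair. The Idh2 to Idh3a count ratio was 8.55, 7.02 and 6.42 in the cardiomyocyte libraries and 1.48, 1.37 and 1.31 in the nonmyocyte libraries, and the geometric mean ratio of cardiomyocytes was 5.25 times that of nonmyocytes. Per kilobase of exon, Idh2 stood at 1038 CPM and Idh3a at 218 CPM in cardiomyocytes, while in nonmyocytes Idh2 stood at 18.1 CPM and Idh3a at 19.8 CPM.

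The 2-oxoglutarate dehydrogenase complex split between its subunits. Ogdh, which decarboxylates 2-oxoglutarate (chromosome 11, 6191636 to 6256645), held 4003, 4882 and 4392 CPM in the cardiomyocyte libraries, against 237, 207 and 235 CPM in the nonmyocyte libraries. It rose by 4.29 ± 0.19 (edgeR adjusted p = 5.81e-10). Dlst, the succinyltransferase core of the same complex (chromosome 12, 86451783 to 86475033), held 924, 949.5 and 996 CPM in the cardiomyocyte libraries, against 148, 138 and 140.1 CPM in the nonmyocyte libraries. Its log2 fold change of 2.75 ± 0.16 was the smallest of the 32 (edgeR adjusted p = 6.46e-09). The Ogdh to Dlst count ratio was accordingly 4.33, 5.14 and 4.41 in the cardiomyocyte libraries and 1.60, 1.5 and 1.68 in the nonmyocyte libraries. No cardiomyocyte ratio came near the nonmyocyte ratios. Of the exon bases of Ogdh, 17.9% also belong to annotated lncRNA genes.

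Succinyl-CoA synthetase pairs the alpha subunit Suclg1 with a beta subunit that makes ATP (Sucla2) or GTP (Suclg2). Suclg1 averaged 1014 ± 107 CPM in cardiomyocytes and 79.9 ± 10.2 CPM in nonmyocytes (log2 fold change 3.67 ± 0.18). Sucla2 (chromosome 14, 73925126 to 73995949) held 132, 156 and 220.3 CPM in the cardiomyocyte libraries, against 13.2, 12.1 and 14.3 CPM in the nonmyocyte libraries, and rose by 3.68 ± 0.22 (edgeR adjusted p = 1.17e-08). Suclg2 (chromosome 6, 95424131 to 95668794) held 43.6, 75.5 and 69.5 CPM in the cardiomyocyte libraries, against 8.21, 9.18 and 10.2 CPM in the nonmyocyte libraries, and rose by 2.78 ± 0.24 (edgeR adjusted p = 4.01e-07). Both beta subunits rose, and the ATP-forming one had the larger fold change. Their count ratio, Sucla2 to Suclg2, was 3.02, 2.06 and 3.17 in the cardiomyocyte libraries and 1.61, 1.31 and 1.40 in the nonmyocyte libraries. Per kilobase of exon Sucla2 stood at 42.4 against 3.31 CPM and Suclg2 at 28.1 against 4.10 CPM in cardiomyocytes against nonmyocytes, both far below Suclg1 (249 against 19.7). Counts of both beta subunits are uncertain. Of the Sucla2 exon bases 26.9% lie in a lncRNA gene on the same strand, and 38.7% of the Suclg2 transcript is matched by the processed pseudogene Gm15163.

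Fumarase (Fh1) averaged 399.8 ± 92.1 CPM in cardiomyocytes and 38.7 ± 2.42 CPM in nonmyocytes, a log2 fold change of 3.37 ± 0.20. The malate dehydrogenases differed in fold change. Mdh2, the mitochondrial enzyme that closes the cycle (chromosome 5, 136254350 to 136266268), held 2292, 2732 and 2136 CPM in the cardiomyocyte libraries, against 344, 336 and 302 CPM in the nonmyocyte libraries. Mdh1, the cytosolic form used by the malate-aspartate shuttle (chromosome 11, 21456790 to 21472370), held 1273, 1765 and 2248 CPM in the cardiomyocyte libraries, against 63.5, 63.3 and 83.7 CPM in the nonmyocyte libraries. Mdh1 rose by 4.65 ± 0.25 (edgeR adjusted p = 3.55e-09) and Mdh2 by 2.87 ± 0.18 (edgeR adjusted p = 1.32e-08). The Mdh2 to Mdh1 count ratio was 1.80, 1.55 and 0.950 in the cardiomyocyte libraries and 5.41, 5.30 and 3.61 in the nonmyocyte libraries. Cardiomyocytes thus held the mitochondrial and the cytosolic transcript at closer levels than nonmyocytes did, and cardiomyocyte library 3 was the only library with more Mdh1 than Mdh2 counts.

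Acyl-CoA dehydrogenases open each round of beta-oxidation and are named by the chain length they prefer. Acadm, for medium chains (chromosome 3, 153585321 to 153607596), held 1008, 1089.8 and 1180.0 CPM in the cardiomyocyte libraries, against 24.7, 23.4 and 19.6 CPM in the nonmyocyte libraries. Its log2 fold change of 5.60 ± 0.19 (edgeR adjusted p = 1.26e-10) was the largest among the beta-oxidation genes. Acadl, for long chains (chromosome 1, 66877413 to 66909851), held 746, 1017 and 973 CPM in the cardiomyocyte libraries, against 36.3, 38.7 and 45.2 CPM in the nonmyocyte libraries, a change of 4.51 ± 0.20 (edgeR adjusted p = 6.49e-10). Acadvl, the very long-chain enzyme of the inner membrane, and Acads, for short chains, rose less. Acadvl averaged 743 ± 115 CPM in cardiomyocytes and 72.4 ± 2.24 CPM in nonmyocytes (log2 fold change 3.36 ± 0.18) and Acads 478 ± 61.5 CPM in cardiomyocytes and 47.0 ± 1.69 CPM in nonmyocytes (log2 fold change 3.35 ± 0.17). Fold changes therefore did not follow chain length in order. The Acadvl to Acadm count ratio was 0.607, 0.722 and 0.703 in the cardiomyocyte libraries and 3.0, 3.12 and 3.57 in the nonmyocyte libraries, so medium-chain counts outnumbered very long-chain counts in every cardiomyocyte library and in no nonmyocyte library. The Acadl to Acads ratio was 1.45, 1.97 and 2.39 in the cardiomyocyte libraries and 0.776, 0.796 and 0.998 in the nonmyocyte libraries. Acadvl is uncertain in level, since 42.9% of its exon bases lie in exons of Dvl2 on the opposite strand and the libraries do not keep the strand.

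The trifunctional protein carries out the later steps for long chains and consists of Hadha and Hadhb subunits. The genes lie head to head on chromosome 5, and in mm9 the annotated starts of Hadha (30481702) and Hadhb (30481788) have 85 bases between them. Hadha (chromosome 5, 30444841 to 30481702) held 2657, 3070.2 and 3179 CPM in the cardiomyocyte libraries, against 258, 206 and 191 CPM in the nonmyocyte libraries. Hadhb (chromosome 5, 30481788 to 30511133) held 64.3, 106 and 112 CPM in the cardiomyocyte libraries, against 4.78, 4.16 and 3.03 CPM in the nonmyocyte libraries. Both rose without overlap, Hadha by 3.76 ± 0.19 (edgeR adjusted p = 2.52e-09) and Hadhb by 4.56 ± 0.28 (edgeR adjusted p = 1.19e-08). In level they were far apart although they share a complex. Per kilobase of exon, Hadha stood at 556 against 40.9 CPM in cardiomyocytes against nonmyocytes and Hadhb at 14.2 against 0.604 CPM. Processed pseudogenes Gm13910 and Gm9108 match 69.7% of the Hadhb transcript at 95% identity or more. No member of the set has a lower level per kilobase than Hadhb in either fraction. Merged exons of Hadhb span 6595 bases, against 2048 in its longest coding transcript in GENCODE, so this rank may depend on the length used. The part of the pseudogene copies in the low count of Hadhb was not tested. The RefSeq promoter window of Hadhb (GRCm38.p6, chr5:30155003-30155302, plus strand) is shown because it overlaps the window of Hadha. The RefSeq starts behind these windows have 272 bases between them, so they differ from the mm9 starts above. Capitals mark the 228 bases that also lie in the Hadha window, which is read on the other strand.
Hadhb: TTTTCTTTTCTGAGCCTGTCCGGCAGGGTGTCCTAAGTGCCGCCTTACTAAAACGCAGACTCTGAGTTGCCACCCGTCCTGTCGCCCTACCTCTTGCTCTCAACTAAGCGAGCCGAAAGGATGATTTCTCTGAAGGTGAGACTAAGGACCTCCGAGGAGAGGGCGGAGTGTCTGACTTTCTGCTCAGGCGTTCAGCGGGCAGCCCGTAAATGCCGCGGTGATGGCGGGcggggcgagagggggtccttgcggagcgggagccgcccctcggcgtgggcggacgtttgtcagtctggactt

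Acaa2, the thiolase that releases acetyl-CoA (chromosome 18, 74938866 to 74965861), held 984, 1232 and 1015 CPM in the cardiomyocyte libraries, against 46.6, 38.0 and 40.7 CPM in the nonmyocyte libraries. It rose by 4.69 ± 0.19 (edgeR adjusted p = 3.29e-10), the second largest change of the beta-oxidation genes. Echs1, the short-chain hydratase, averaged 492 ± 21.4 CPM in cardiomyocytes and 23.5 ± 2.01 CPM in nonmyocytes (log2 fold change 4.39 ± 0.17). Hadh, the hydroxyacyl-CoA dehydrogenase that acts on the product of Echs1, averaged 288 ± 38.9 CPM in cardiomyocytes and 40.2 ± 1.94 CPM in nonmyocytes (log2 fold change 2.84 ± 0.17). Of these consecutive enzymes Echs1 had the larger fold change, and the Hadh to Echs1 count ratio was 0.510, 0.620 and 0.625 in the cardiomyocyte libraries and 1.49, 1.82 and 1.86 in the nonmyocyte libraries. Auxiliary enzymes for unsaturated chains rose too. The isomerase Eci1 averaged 471 ± 19.3 CPM in cardiomyocytes and 31.1 ± 3.03 CPM in nonmyocytes (log2 fold change 3.92 ± 0.17), and the 2,4-dienoyl-CoA reductase Decr1 324 ± 50.1 CPM in cardiomyocytes and 43.5 ± 6.33 CPM in nonmyocytes (log2 fold change 2.90 ± 0.19). The mitochondrial thioesterase Acot2, which frees fatty acids from CoA, averaged 145 ± 8.53 CPM in cardiomyocytes and 7.99 ± 2.02 CPM in nonmyocytes (log2 fold change 4.19 ± 0.22). Acot2 is uncertain, as 58.0% of its transcript is matched by Acot1, a cytosolic paralog.

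Electrons from the acyl-CoA dehydrogenases pass to the electron transfer flavoprotein, made of Etfa and Etfb, and from there through Etfdh to ubiquinone. Etfdh (chromosome 3, 79407710 to 79432785) held 356, 462 and 521 CPM in the cardiomyocyte libraries, against 25.5, 27.2 and 25.6 CPM in the nonmyocyte libraries, a log2 fold change of 4.10 ± 0.19 (edgeR adjusted p = 1.12e-09). Etfb (chromosome 7, 50699478 to 50713170) held 1469, 1616 and 1244 CPM in the cardiomyocyte libraries, against 206, 182 and 138 CPM in the nonmyocyte libraries, a change of 3.04 ± 0.20 (edgeR adjusted p = 2.55e-08). Etfa averaged 128 ± 15.8 CPM in cardiomyocytes and 11.5 ± 0.435 CPM in nonmyocytes (log2 fold change 3.48 ± 0.18). The membrane acceptor had a larger fold change than either subunit of the soluble carrier. The Etfa to Etfb count ratio was 0.0756, 0.0815 and 0.114 in the cardiomyocyte libraries and 0.0563, 0.0607 and 0.0861 in the nonmyocyte libraries, and these values overlapped between the fractions. Both carrier subunits are uncertain in level. Of the Etfb transcript 70.1% is matched by Gm45233, here a transcript annotated for nonsense-mediated decay and not a pseudogene. In the deposited annotation 0% of the Etfb exon bases lie in other genes. Of the Etfa transcript 17.5% is matched by the processed pseudogene Gm15289.

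**Figure D2:**
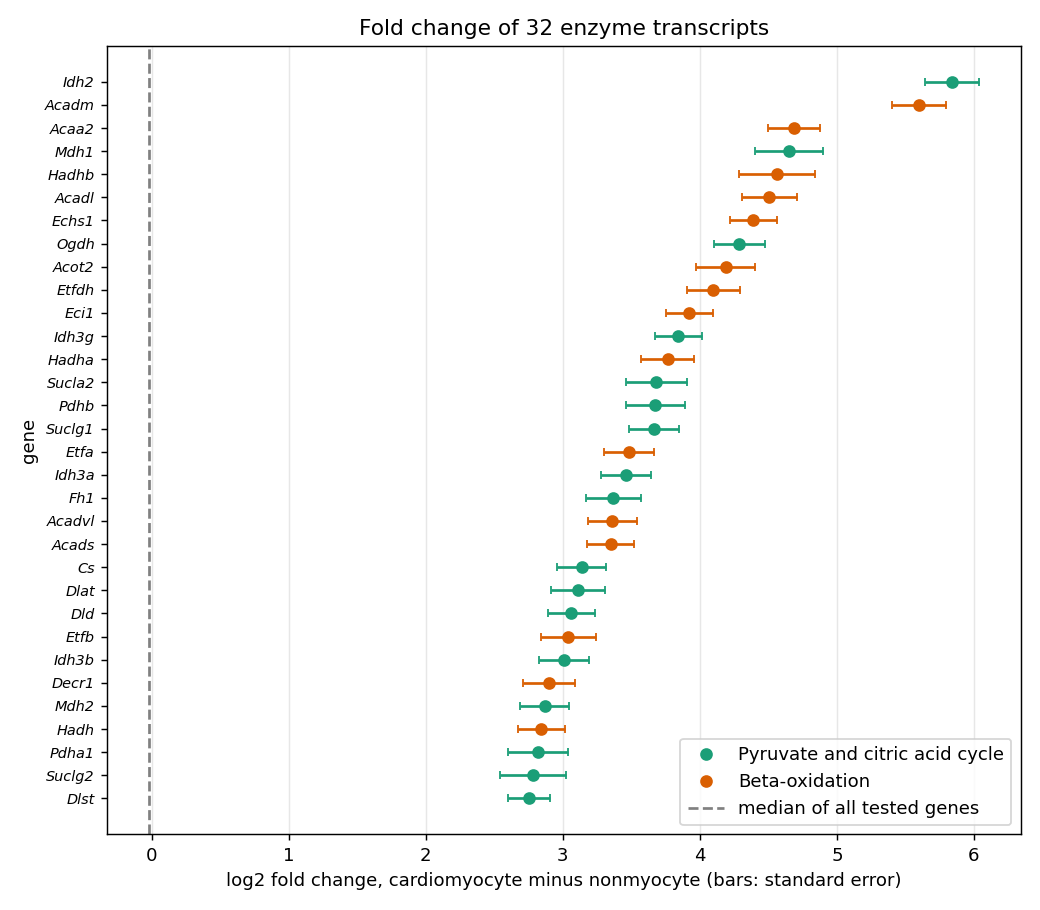
Log2 fold change (x axis, cardiomyocyte minus nonmyocyte, bars are standard errors) of the 32 enzymes, sorted, with pyruvate and citric acid cycle genes in green and beta-oxidation genes in orange. The dashed line is the median of all tested genes at -0.02, and every enzyme lies between 2.75 and 5.84.

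Beta-oxidation genes lay somewhat higher on the scale of fold changes than the pyruvate and citric acid cycle genes, with much overlap. Changes above 4 on the log2 scale were seen in 7 of 15 beta-oxidation genes and in 3 of 17 pyruvate and citric acid cycle genes. Etfdh had the smallest of these (4.10), and 6.85% of all tested genes had a larger change than Etfdh. Changes above 3 were seen in 13 of 15 beta-oxidation genes and in 13 of 17 pyruvate and citric acid cycle genes. The pyruvate and citric acid cycle genes summed to 17737, 22043 and 20792 CPM in the cardiomyocyte libraries, against 1632, 1637 and 1688 CPM in the nonmyocyte libraries. Sums of the beta-oxidation genes were 10138, 11862 and 11313 CPM in the cardiomyocyte libraries, against 878, 807 and 731 CPM in the nonmyocyte libraries. The mean sums differed by 12.2-fold and 13.8-fold. Within a library, the beta-oxidation sum divided by the other sum was 0.551 ± 0.0178 in cardiomyocytes and 0.488 ± 0.0526 in nonmyocytes. That ratio, which does not depend on scaling, all but met between the groups, since the lowest cardiomyocyte and the highest nonmyocyte library both stood at 0.538. Both sums thus differed between the fractions by similar factors.

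Ratios of 16 gene pairs that share a complex, a reaction or a pathway step were compared within libraries, so that the scaling of libraries drops out. Ratios of counts are not corrected for gene length. In 15 of the 16 pairs the cardiomyocyte and nonmyocyte libraries did not overlap, and each of these reached p = 0.1 in a two-sided exact permutation test, the smallest that 3 against 3 libraries allow (adjusted p = 0.107 over the 16 pairs). Etfa to Etfb was the pair with overlap (exact permutation p = 0.3). None could pass 0.05 in this design. How often pairs of other genes separate was not computed, and several genes recur among the pairs. Of all tested single genes, 34.1% lay higher and 36.3% lower in all cardiomyocyte libraries than in all nonmyocyte libraries. The largest shifts were toward Idh2 over Idh3a (5.25-fold) and toward Acadm over Acads (4.79-fold) in cardiomyocytes, and the ratio of Acadvl to Acadm was 0.210 times that of nonmyocytes. Between subunits of a complex, the shifts ran from small to large. The Ogdh to Dlst ratio was 2.90 times and the Pdha1 to Pdhb ratio 0.553 times that of nonmyocytes. The Idh3a to Idh3b ratio was 1.36 times and the Dlat to Pdha1 ratio 1.23 times that of nonmyocytes. The Hadha to Hadhb ratio was 0.593 times that of nonmyocytes. Outside a shared complex, the ratio of Etfdh to Etfa, which pass electrons in sequence, was 1.53 times that of nonmyocytes. Enzymes of the set thus rose together but by unequal factors.

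**Figure D3:**
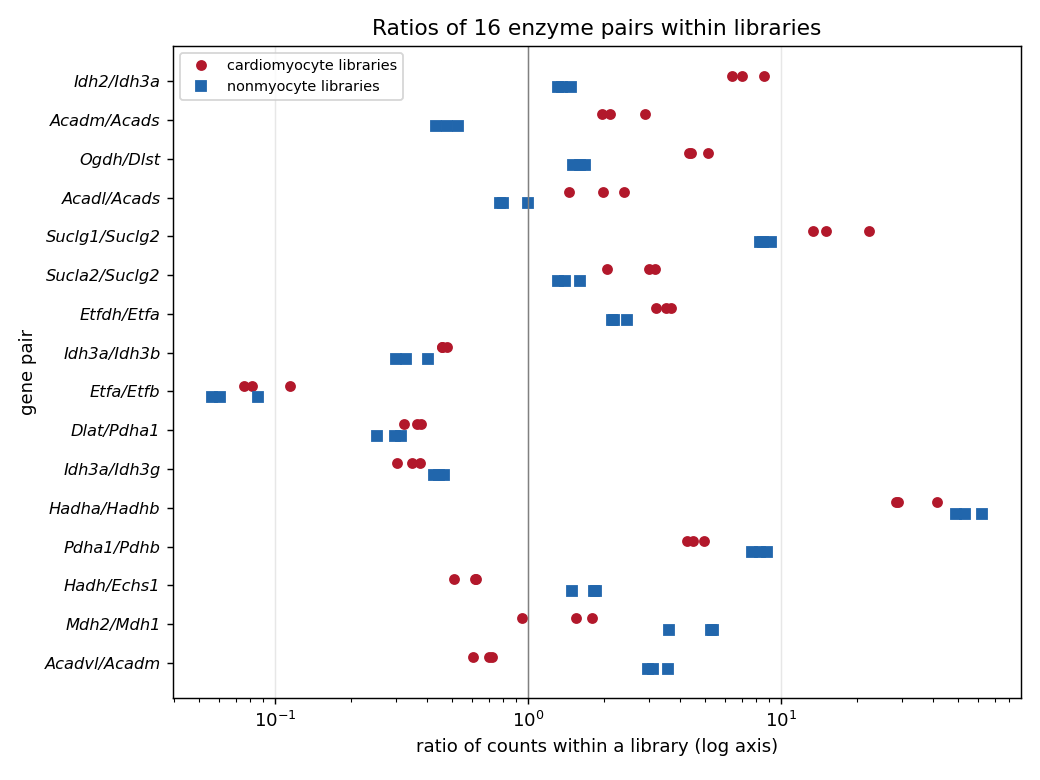
Ratio of counts of 16 enzyme pairs within each library (log axis), sorted by the difference between the fractions, with circles for the 3 cardiomyocyte libraries and squares for the 3 nonmyocyte libraries. The vertical line marks equal counts. Idh2 to Idh3a lies furthest toward higher ratios in cardiomyocytes and Acadvl to Acadm furthest toward lower ratios.

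Levels of different genes were compared per kilobase of merged exons. These spanned 1080 bases in Eci1 to 6771 in Etfdh, and merged exons can exceed the length of a single transcript. Ranks and shares across genes may therefore depend on the length used. In cardiomyocytes the highest enzymes were Etfb (1267 CPM per kilobase), Mdh2 (1143), Idh2 (1038) and Ogdh (811), which all ranked among the 100 highest of the 14734 tested genes. Etfb and Mdh2 did not differ beyond their spread (SD 165 and 148 CPM per kilobase), nor did Mdh2 and Idh2. In nonmyocytes Mdh2 (157) and Etfb (154) again led, followed at a distance by Cs (76.5) and Dlst (51.5). Among the 500 highest genes stood 20 of the enzymes in cardiomyocytes and 2 in nonmyocytes. The order of the 32 levels was largely shared (Spearman's rho = 0.837 across the 32 genes, which share libraries, lengths and annotation). Exceptions were large for single genes. Of the summed level per kilobase of the pyruvate and citric acid cycle genes, Idh2 made up 15.6% ± 1.37 in cardiomyocytes and 3.20% ± 0.362 in nonmyocytes, and Mdh2 17.2% ± 2.0 in cardiomyocytes and 27.6% ± 2.09 in nonmyocytes. Among beta-oxidation genes, Acadm made up 7.88% ± 0.743 in cardiomyocytes and 2.11% ± 0.0470 in nonmyocytes, Acaa2 15.1% ± 0.762 in cardiomyocytes and 7.66% ± 0.785 in nonmyocytes and Etfb 26.7% ± 2.79 in cardiomyocytes and 41.9% ± 3.81 in nonmyocytes. Hadha kept a steady place, at 11.7% ± 0.970 in cardiomyocytes and 11.2% ± 0.764 in nonmyocytes.

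Because the 32 genes rose together, promoter windows from RefSeq (GRCm38.p6, 250 bases before to 50 after a start) were searched on both strands for 3 short motifs. Windows were found for 29 of the genes, 34 windows in all, since Ogdh has 6 overlapping or neighbouring ones. The element of estrogen-related receptors, TNAAGGTCA, occurred in 0 of the 34 windows and in 1.28% of all 32851 windows. The core of the nuclear respiratory factor 1 element, GCGCATGCG, occurred in 4 of the 34 windows and in 1.75% of all windows. These belonged to 3 of the 29 genes, Acadm, Etfdh and Ogdh. The Ogdh windows with a match overlap and hold the same site. The CCAAT box occurred in 19 of the 34 windows, of 14 genes and with all 6 of Ogdh, and in 37.4% of all windows. A match describes letters in a window, and nothing follows from it about the factor. The windows with the GCGCATGCG match are shown because they hold it in genes among the 10 largest fold changes of the set, with the match in capitals. In Etfdh it is read on both strands, where overlapping matches fill 10 bases. Acadm lies at chr3:153944594-153944893, minus strand, Etfdh at chr3:79628718-79629017, minus strand and the Ogdh window, the sixth of its list, at chr11:6292329-6292628, plus strand.
Acadm: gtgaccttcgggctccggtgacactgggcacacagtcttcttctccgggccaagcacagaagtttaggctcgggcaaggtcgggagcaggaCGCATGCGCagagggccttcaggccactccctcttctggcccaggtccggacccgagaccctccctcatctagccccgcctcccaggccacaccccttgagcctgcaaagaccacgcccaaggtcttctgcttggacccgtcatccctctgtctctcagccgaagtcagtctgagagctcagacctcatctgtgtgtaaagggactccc
Etfdh: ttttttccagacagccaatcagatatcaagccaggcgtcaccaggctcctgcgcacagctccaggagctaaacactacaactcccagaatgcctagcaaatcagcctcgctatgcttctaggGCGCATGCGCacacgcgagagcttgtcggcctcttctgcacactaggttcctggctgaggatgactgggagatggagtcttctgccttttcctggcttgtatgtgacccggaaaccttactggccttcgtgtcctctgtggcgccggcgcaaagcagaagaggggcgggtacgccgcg
Ogdh: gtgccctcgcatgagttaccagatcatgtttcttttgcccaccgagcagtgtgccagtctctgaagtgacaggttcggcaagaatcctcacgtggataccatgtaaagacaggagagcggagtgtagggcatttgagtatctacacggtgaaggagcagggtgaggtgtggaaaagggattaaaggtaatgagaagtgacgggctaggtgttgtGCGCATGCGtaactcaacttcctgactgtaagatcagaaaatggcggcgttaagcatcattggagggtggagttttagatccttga

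Other genes of pyruvate and citric acid cycle metabolism were less uniform. Of 30 listed and tested, 20 rose, 4 fell and 6 were not called, at a median log2 fold change of 2.84. Over all tested genes, 31.6% were called higher and 32.1% lower. Among the highest per kilobase were the succinate dehydrogenase subunits Sdhb (log2 fold change 4.01 ± 0.18) and Sdhd (2.84 ± 0.20). Largest among the increases were those of Pdk2 (5.49 ± 0.23), a kinase that inhibits pyruvate dehydrogenase, and Sdha (4.56 ± 0.33), of whose exon bases 59.2% lie in other genes. Among those that fell were Pdk3 (-3.51 ± 0.63), another such kinase, the cytosolic citrate lyase Acly (-1.86 ± 0.20), which feeds fatty acid synthesis, and the malic enzyme Me2 (-1.75 ± 0.24). Pdk3 rests on few counts, with 0, 13 and 8 in the cardiomyocyte libraries and 61, 51 and 70 in the nonmyocyte libraries. Idh1, the cytosolic counterpart of Idh2, was chosen after its values were seen. It held 27.9, 50.7 and 55.8 CPM in the cardiomyocyte libraries, against 44.6, 65.2 and 71.8 CPM in the nonmyocyte libraries, and was not called (log2 fold change -0.42 ± 0.26, edgeR adjusted p = 0.171). With library totals alone it was called lower (-1.12, edgeR adjusted p = 0.00126).

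Genes of mitochondrial fatty acid handling outside the set mostly rose, with 21 of 23 tested higher and 2 lower at a median of 2.86. Ech1, a dienoyl-CoA isomerase (2787 ± 162 CPM in cardiomyocytes and 109 ± 10.8 CPM in nonmyocytes), Acot13, a thioesterase (log2 fold change 2.92 ± 0.19), and the acetoacetyl-CoA thiolase Acat1 (3.99 ± 0.20) were the highest per kilobase. The acetyl-CoA synthetase Acss1 (7.28 ± 0.26) and the muscle carnitine acyltransferase Cpt1b (6.06 ± 0.34, 94.8% of exon bases shared with other genes) rose most. Cpt1a (-1.95 ± 0.30), the carnitine acyltransferase of liver, and the thioesterase Acot9 (-1.35 ± 0.46, edgeR adjusted p = 0.0208) fell. Acot9 was no longer called without nonmyocyte library 2 (edgeR adjusted p = 0.0526) or 3 (edgeR adjusted p = 0.0553). The log2 fold change of Acot9 was -0.93 without cardiomyocyte library 1, which held 6 counts of it where the other cardiomyocyte libraries held 170 and 148. Peroxisomes run a beta-oxidation of their own with separate enzymes. Of 20 peroxisomal genes tested, 12 rose, 2 fell and 6 were not called, at a median of 0.85. The shares over all tested genes were 31.6% higher and 32.1% lower. Phyh, which starts the breakdown of branched fatty acids (767 ± 154 CPM in cardiomyocytes and 15 ± 4.59 CPM in nonmyocytes, log2 fold change 5.67 ± 0.26), and the transporter Abcd2 (3.75 ± 0.59) rose most. The bifunctional enzyme Hsd17b4 rose by 0.88 ± 0.20 (edgeR adjusted p = 0.00155), a call that was lost with library totals alone (0.19, edgeR adjusted p = 0.335). The reductase Decr2 (-0.93 ± 0.19) and the import receptor Pex5 (-0.67 ± 0.18) fell. With library totals alone the peroxisomal genes called were 8 higher and 6 lower, and the other pyruvate and citric acid cycle genes 20 higher and 9 lower.

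**Figure D4:**
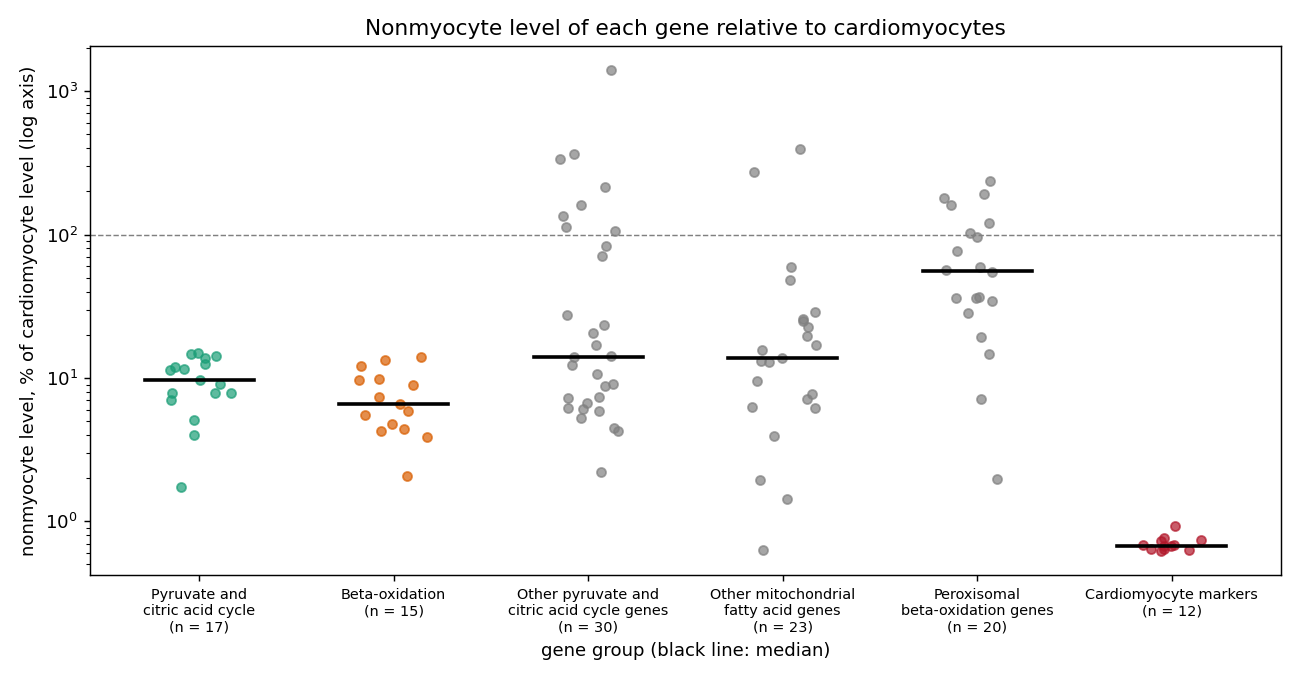
Nonmyocyte level of each gene as a percentage of its cardiomyocyte level (log axis) for the enzymes, the other tested genes of related pathways and the cardiomyocyte markers, with a black line at the median of each group and a dashed line at 100%. The enzymes lie between 1.75% and 14.8%, and the markers between 0.619% and 0.926%.

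Markers of other cells were measured beside the enzymes. Their counts of calls stand beside 31.6% higher and 32.1% lower over all tested genes. All 12 cardiomyocyte markers rose, and their summed level was 147864 to 193720.0 CPM in cardiomyocyte libraries and 1029 to 1380.3 CPM in nonmyocyte libraries. Myh6, a myosin heavy chain of heart muscle, was the highest at 60011 ± 11101 CPM in cardiomyocytes and 411 ± 58.2 CPM in nonmyocytes. In sum nonmyocytes held 0.686% of the cardiomyocyte level. That share of the cardiomyocyte level would equal 39.2% of the nonmyocyte level of Idh2 and 33.2% of that of Acadm. For Dlst it would equal 4.62%, the lowest value of the set. Fibroblast markers fell in 11 of 11 tested, with sums of 495 to 746 CPM in cardiomyocyte libraries and 29365 to 33850.0 CPM in nonmyocyte libraries. Fn1, a matrix protein, was the highest of these at 231 ± 64.2 CPM in cardiomyocytes and 15102 ± 1613 CPM in nonmyocytes. Endothelial markers rose in 8 of 9 tested, with sums of 701 to 1359 CPM in cardiomyocyte libraries and 105 to 118 CPM in nonmyocyte libraries. The junction protein Cdh5 was the highest at 279 ± 96.4 CPM in cardiomyocytes and 37.5 ± 5.53 CPM in nonmyocytes. Pecam1 had 0 counts in all nonmyocyte libraries and at most 3 in any cardiomyocyte library. Its count is uncertain, since 81.1% of the exon bases of Pecam1 lie in other genes. Smooth muscle and pericyte markers rose in 3 and fell in 5 of 8, with sums of 486 to 746 CPM in cardiomyocyte libraries and 6749.6 to 8338 CPM in nonmyocyte libraries. The actin Acta2 was the highest of these at 359.6 ± 42.8 CPM in cardiomyocytes and 6357 ± 745 CPM in nonmyocytes. Those that rose were Kcnj8 (log2 fold change 6.92 ± 0.58), Rgs5 (5.09 ± 0.28) and Cspg4 (0.82 ± 0.28), while Acta2, Myh11, Cnn1, Tagln and Pdgfrb fell. Macrophage and leukocyte markers rose in 3 and fell in 2 of 7 tested, with sums of 75 to 86.2 CPM in cardiomyocyte libraries and 95.4 to 107 CPM in nonmyocyte libraries. The lysozyme Lyz2 was the highest of these in cardiomyocytes, at 21.2 ± 8.06 CPM in cardiomyocytes and 30.5 ± 3.86 CPM in nonmyocytes. The receptor Csf1r was the highest in nonmyocytes, at 13.1 ± 2.78 CPM in cardiomyocytes and 43.0 ± 2.47 CPM in nonmyocytes. Those that rose were C1qa (log2 fold change 4.30 ± 0.47), C1qb (4.87 ± 0.68) and C1qc (4.44 ± 0.53), with at most 13 counts in any nonmyocyte library. Those that fell were Cd68 (-2.57 ± 0.31) and Csf1r (-1.74 ± 0.22). The 5 adipocyte markers had 0 counts in all nonmyocyte libraries and sums of 1.07 to 6.97 CPM in cardiomyocyte libraries, most of it Cfd, and Lep had 0 counts in all 6 libraries. The part of other cell types in the enzyme levels was not tested.

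Total counts were 5956831 to 26851830 in cardiomyocyte libraries and 8126422 to 10792544 in nonmyocyte libraries. All 32 enzymes passed the filter on low counts, and their lowest count in any library was 39, for Hadhb. Mitochondrially encoded genes took 3.06% to 6.12% of counts in cardiomyocytes and 0.236% to 0.405% in nonmyocytes. Cardiomyocyte library 1, the shallowest of all, was the lowest of its group for 25 of the 32 enzymes. Without it, the 32 enzymes were still all called, with medians of 3.57 for the pyruvate and citric acid cycle genes and 3.93 for the beta-oxidation genes. Leaving out the correction for library composition shifted the median of all genes by -0.68 (log2), and the share of called genes that were higher became 30.9% in place of 49.6%. All enzymes were called with it, at 2.08 or more.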

How the data were processed

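The authors deposited whole-number counts per gene, without normalization, for 3 cardiomyocyte and 3 nonmyocyte libraries. The libraries were single-end and did not keep the strand, per the labels' protocols. The submitters' processing notes name Bowtie, TopHat 1.3.0, HTSeq, DESeq and edgeR, with no role given, and build mm9. How reads were assigned to genes is not given in the sources used here.

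Counts were tested with edgeR 4.0.16 (robust quasi-likelihood, TMM scaling, filterByExpr with a minimum count of 10, R 4.3.3). Limma 3.58.1 (voom) and DESeq2 1.42.0 were alternatives, as were other scalings, no filter, a replicate block and leaving out each library. Pair ratios had 0.5 added to each count. Positions, exon lengths and shared exon bases came from the deposited mm9 annotation. Near-identical copies were sought with BLAST+ 2.17.0 among GENCODE transcripts (identity of 95% or more over 100 bases or more). Promoter windows are RefSeq's (GRCm38.p6).

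The 32 genes and the other lists were chosen with earlier results of these data known. Genes named from the other lists are the 3 highest per kilobase in cardiomyocytes, the 2 with the largest fold each way among those called, and all members lower or not called where these are 5 or fewer. From each marker list the highest marker is named, in each fraction where they differ. Pecam1, Lep and the called markers of the macrophage and smooth muscle lists are named outside this rule. Some genes that this rule selects are not reported here. Small RNA libraries were not used here.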

Additional observations from a re-analysis of the deposited data

How the results depend on the processing

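All 448 recomputed fold changes of the 32 enzymes, over 14 settings, kept their direction and their call. All 112 recomputed differences of pair ratios kept their direction. For the 15 pairs without overlap, leaving out a library could not have reversed it, so that count says little. With library totals in place of composition scaling, all genes called lower numbered 7106, against 4732 as reported. The summed levels then differed by 2.93 (log2) for the pyruvate and citric acid cycle genes, against 3.61 as reported, and by 3.11 for the beta-oxidation genes, against 3.79 as reported. Leaving out 1 library at a time gave 3.54 to 3.73 for the sum of cycle genes and 3.74 to 3.92 for the beta-oxidation sum. Of 322 recomputed values of the other named genes, which were added after seeing the data, 317 kept direction and call. The 5 exceptions were Idh1, called lower with library totals and with the replicate block (-0.46, edgeR adjusted p = 0.0249), Hsd17b4 with library totals, and Acot9 without nonmyocyte library 2 or 3. The fit with the replicate number as a block called 9499 genes, against 9389 without it, and all 32 enzymes. Deviations of same-numbered libraries correlated at 0.229, 0.0553 and 0.166 across genes, and those of differently numbered libraries at -0.249 to 0.114. Cardiomyocyte libraries 1 and 3 correlated best with the nonmyocyte library of their own number, and cardiomyocyte library 2 with nonmyocyte library 3 (0.0776). Whether same-numbered libraries belong together was not tested. Apart from the scaling, whose shift of all genes is given above, the cause of these differences was not tested.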
